A study of Mus musculus with 26 samples.

Results

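The synaptotagmins described here are the 10 genes Syt1, Syt2, Syt3, Syt4, Syt5, Syt6, Syt7, Syt9, Syt10 and Syt11, taken by gene symbol from the 38828 genes of the deposited table of RPKM, a level scaled to gene length and library depth. Each symbol had 1 entry. Of the 39017 genes in the count table, 17411 had enough counts to be tested, and all 10 synaptotagmins were among them.

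Synaptotagmins are membrane proteins of synaptic and secretory vesicles. They carry a pair of C2 domains, which in most members bind calcium and phospholipids and trigger the SNARE proteins to fuse the vesicle with the plasma membrane. Syt1 and Syt2 are sensors of fast, synchronous transmitter release, and Syt9 has been counted with them; Syt3 and Syt7 bind calcium more tightly and serve slower forms of release and membrane trafficking; Syt4 and Syt11 are members with reduced or absent calcium binding. The names Syt5 and Syt9 have been exchanged in the literature, so a role reported under one name may belong to the other gene, and both are given here by the symbols of the files. In the dorsal root ganglion, where the cell bodies of somatosensory neurons lie, these genes supply the release machinery of terminals in the spinal cord and brainstem.

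Messenger RNA was sequenced from 8 subtypes of dorsal root ganglion neurons sorted by fluorescence from mice at postnatal day 23 or later. There were 26 libraries, 5 for Aβ RA-LTMRs and 3 for each of the other subtypes. LTMRs are low-threshold mechanoreceptors, which signal light touch. Each library pooled the ganglia of several mice, so the spread between libraries is that between pools. Proprioceptors, the muscle afferents, were marked by PVIRESCre with the Ai14 tdTomato reporter and came from thoracic ganglia alone. In slowly adapting Aβ SA1-LTMRs, TrkCCreER acted on a GFP-marked Ret allele after 3 mg of tamoxifen per day at E12.5. Aβ Field-LTMRs carried the same alleles but had 2 mg of tamoxifen per day at postnatal days 13 to 14 or 14 to 15. Rapidly adapting Aβ RA-LTMRs were marked by Npy2r-GFP. Aδ-LTMRs carried TrkBCreER with Ai14 and had 2 mg of tamoxifen per day at embryonic days 12 to 13. C-LTMRs carried ThCreER with Ai14 and had 2 mg per day at postnatal days 13 to 14 or 14 to 15, peptidergic nociceptors carried CGRP-GFP, and nonpeptidergic nociceptors MrgD-EGFP. The first 5 subtypes have A fibres and form one side of the main comparison; nociceptors and C-LTMRs form the other. Genotype, tamoxifen and subtype cannot be told apart, and neither can fewer cells of a type and less RNA per cell.

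Total counts ran from 10706522 to 66309214 per library. Members other than Syt10 had at least 14 counts in every library, the lowest being Syt3 in nonpeptidergic nociceptors. The parts of counting and of the spread between libraries in the error were not separated. Between 61.4% and 97.7% of reads mapped, the lowest in Aδ-LTMR libraries 1 and 2. The genes that mark the subtypes mostly followed the labels. Pvalb averaged 281 CPM (counts scaled to library size) in proprioceptors and at most 53.1 in any other subtype, Th 398 CPM in C-LTMRs and at most 28.4 elsewhere, Calca 3556 CPM in peptidergic nociceptors and at most 582 elsewhere, and Mrgprd 1026 CPM in nonpeptidergic nociceptors and at most 66.5 elsewhere. Ntrk2, which encodes TrkB, averaged 523 CPM in Aδ-LTMRs and 439.6 CPM in Aβ RA-LTMRs, above any other subtype. Ntrk3, which encodes TrkC, was highest in the 2 classes marked through it, at 194.7 CPM for Aβ Field-LTMRs and 193.7 CPM for Aβ SA1-LTMRs. Ret, whose marked allele these 2 classes also carried, averaged 449 CPM in Aβ Field-LTMRs and 274 CPM in Aβ SA1-LTMRs. Higher Ret levels were found in C-LTMRs (1356 CPM), nonpeptidergic nociceptors (1231 CPM), Aβ RA-LTMRs (565 CPM) and peptidergic nociceptors (533 CPM). Npy2r, which drives the Aβ RA-LTMR label, was higher in peptidergic nociceptors (52.9 CPM) than in Aβ RA-LTMRs (20.4 CPM). The summed level of 10 neuronal markers ran from 8834 to 15682 CPM in A-fibre libraries, against 5624 to 6365 CPM in nociceptor and C-LTMR libraries. Of these, Snap25 (5645 against 1872 CPM) and Nefh (3038 against 287 CPM) were called higher in A-fibre subtypes by the test given below. The other 8 were not called, and the median log2 fold change of the 10 was 0.0008. The summed level of 8 satellite glia markers, none of them at 0, ran from 773 to 4125 CPM in A-fibre libraries and from 329 to 1099 CPM in the others. A score of these markers was added to the model as an alternative. With 1 coefficient per subtype, only the spread within subtypes informs the effect of the score. The part of satellite glia in the differences below can thus not be told apart from subtype.

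Most synaptotagmins differed between the sides, in both directions. Relative to nociceptors and C-LTMRs, A-fibre subtypes had more Syt2 and Syt3 and less Syt1, Syt4, Syt5, Syt6, Syt7, Syt9 and Syt10, while Syt11 did not pass the test. In edgeR's quasi-likelihood test with Benjamini-Hochberg adjustment over all genes, a gene was called where the adjusted p was under 0.05 and the fold change 1 or more in size on the log2 scale. On these terms 2 of 10 members were higher in A-fibre subtypes, where 15.6% of all genes tested were, and 7 of 10 were lower, where 12.9% of all genes were, so 9 of 10 were called in either direction against 28.5% of all genes. The median log2 fold change was -2.25 over the 10 members and 0.02 over all genes tested. An F test across the 8 subtypes, at an adjusted p under 0.05, passed 9 of 10 members and 78.3% of all genes, so that share is near the background. All 9 calls of the A-fibre contrast were kept when the satellite glia score was added to the model and when only libraries with reads of 15 to 50 bases were used. With the score, Syt2 was at 4.21 (SE 0.43, against 0.21 without it) and Syt1 at -2.13 (SE 0.26, against 0.10). The score cannot separate glia from subtype, as said above. Strand-specific counting is not stated, but the genes whose exons overlap those of Syt4, Syt6 and Syt7 on the opposite strand averaged at most 0.151 CPM.

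**Figure D1:**
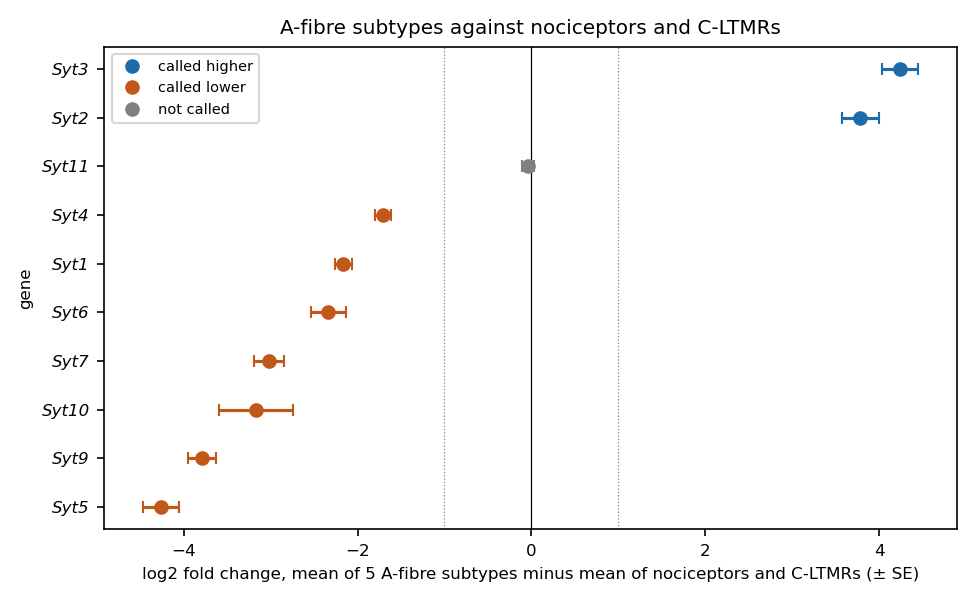
Log2 fold change of each synaptotagmin (y axis) between the mean of the 5 A-fibre subtypes and the mean of nociceptors and C-LTMRs, from edgeR's fit of the counts; points are estimates, bars ± 1 SE and dotted lines the threshold of 1. Syt3 and Syt2 lie at 4.24 and 3.78, Syt11 at -0.04 and the other 7 members between -1.71 and -4.26.

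The promoters of 2 members that were higher in A-fibre subtypes, Syt2 and Syt3, and of 2 that were lower, Syt1 and Syt9, are shown because these members moved in opposite directions; the data hold no measurement on the promoters themselves. RefSeq windows from 250 bases before to 50 after a transcription start were taken for 7 of 10 members, with Syt4 left out of the search. The windows below are on build GRCm38.p6, 5′ to 3′ on the strand of the gene, and are for the start nearest to the annotated gene start. Capitals mark matches on either strand to GGGCGG, called the GC box, to CCAAT, the CCAAT box, to TATAAA, called the TATA box, or to TGACG, called the cAMP response half-site; no 2 matches overlap in these windows. A match is a description of letters, not of a bound site.
Syt2, chr1:134646362-134646661, plus strand: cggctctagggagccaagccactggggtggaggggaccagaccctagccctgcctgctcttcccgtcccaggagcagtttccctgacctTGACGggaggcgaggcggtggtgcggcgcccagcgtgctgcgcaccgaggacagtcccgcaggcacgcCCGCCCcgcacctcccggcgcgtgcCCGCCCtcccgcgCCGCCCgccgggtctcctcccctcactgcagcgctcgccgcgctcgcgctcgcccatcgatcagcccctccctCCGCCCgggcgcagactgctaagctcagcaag
Syt3, chr7:44383876-44384175, plus strand: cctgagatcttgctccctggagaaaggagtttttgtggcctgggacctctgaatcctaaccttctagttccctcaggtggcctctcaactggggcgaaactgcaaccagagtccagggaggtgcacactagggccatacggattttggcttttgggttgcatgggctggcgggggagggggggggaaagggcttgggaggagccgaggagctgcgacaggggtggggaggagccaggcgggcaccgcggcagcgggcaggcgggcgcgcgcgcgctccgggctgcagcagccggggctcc
Syt1, chr10:109010926-109011225, minus strand: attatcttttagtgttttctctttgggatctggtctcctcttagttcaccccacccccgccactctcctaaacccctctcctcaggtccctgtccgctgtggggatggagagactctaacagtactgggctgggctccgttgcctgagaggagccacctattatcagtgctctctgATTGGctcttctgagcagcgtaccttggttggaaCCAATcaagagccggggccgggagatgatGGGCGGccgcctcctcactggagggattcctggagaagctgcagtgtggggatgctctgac
Syt9, chr7:107370540-107370839, plus strand: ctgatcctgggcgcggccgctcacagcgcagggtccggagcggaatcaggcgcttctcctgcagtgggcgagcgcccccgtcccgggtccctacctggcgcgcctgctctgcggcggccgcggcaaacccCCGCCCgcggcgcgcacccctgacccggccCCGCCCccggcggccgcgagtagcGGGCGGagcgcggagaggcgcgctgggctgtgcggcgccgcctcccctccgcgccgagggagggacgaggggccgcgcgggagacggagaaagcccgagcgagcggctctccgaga
The window of Syt2 held 4 GC boxes and 1 TGACG, that of Syt1 held 1 GC box and 2 CCAAT, and that of Syt9 held 3 GC boxes. None of the 4 sets of letters was in the Syt3 window. Of 32851 mouse promoter windows, 35.7% held a GC box, 37.4% a CCAAT, 13.6% a TATAAA and 20.8% a TGACG. The GC content was 74.3% for Syt2, 66.3% for Syt3, 56.7% for Syt1 and 79.3% for Syt9, against a median of 52.7% over all windows. The letters searched did not separate the higher from the lower members: GC boxes were in Syt2, Syt1 and Syt9.

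Of Syt1, Syt2 and Syt9, Syt2 was the most abundant per length in Aβ-LTMRs and proprioceptors, and Syt1 in all other subtypes, with Syt9 within its spread in peptidergic nociceptors. Syt2 (chromosome 1, 134646677 to 134762593, plus strand, build GRCm38) had 61.8, 53.2 and 50.7 RPKM in proprioceptors, 69.9, 45.4 and 55.3 in Aβ SA1-LTMRs, 72.7, 40.8 and 46.7 in Aβ Field-LTMRs, and 52.3, 51.1, 59.5, 54.9 and 32.3 in Aβ RA-LTMRs. It had 26.6, 17.1 and 19.2 RPKM in Aδ-LTMRs, against 5.24, 3.499 and 4.75 in C-LTMRs, 17.9, 21.2 and 19.3 in peptidergic nociceptors, and 1.10, 0.165 and 0.488 in nonpeptidergic nociceptors. The Aβ-LTMR and proprioceptor libraries were above all others, Aδ-LTMR and peptidergic nociceptor libraries overlapped, and nonpeptidergic nociceptor libraries were the lowest. Its A-fibre contrast was a log2 fold change of 3.78 (SE 0.21, edgeR adjusted p = 4.03e-14).

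No pair among the 3 Aβ-LTMR classes and proprioceptors was called for Syt2; the SE of these log2 differences was 0.30 to 0.34. Each of these 4 subtypes was higher than Aδ-LTMRs by a log2 difference of 1.25 to 1.46. Aδ-LTMR libraries 1 and 2 mapped at 61.4% and 74.5% and had reads of 15 to 51 bases. Without them 1 Aδ-LTMR library is left, assumed to vary like the other groups. No other library had such reads, so with read length in the model Aδ-LTMRs also rest on that 1 library. In both cases the 4 differences were no longer called. Over all alternatives the log2 difference was 1.19 to 1.41 for Aβ RA-LTMRs, 1.17 to 1.55 for Aβ Field-LTMRs, 1.27 to 1.62 for proprioceptors and 0.93 to 1.47 for Aβ SA1-LTMRs. Aδ-LTMRs and peptidergic nociceptors differed by 0.35 (SE 0.34, edgeR adjusted p = 0.490). Syt2 was called lower in nonpeptidergic nociceptors than in each of the other 7 subtypes, the smallest log2 difference being -2.70, from C-LTMRs; 6.5% of all genes were lower in that subtype in the same way. The smallest difference was -3.52 without nonpeptidergic nociceptor library 1 and -2.27 without library 2, and the 7 calls were kept in both cases.

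Syt1 (chromosome 10, 108497650 to 109010982, minus strand), the main fast sensor of forebrain synapses, ran the other way but set Aδ-LTMRs apart from the rest of the A-fibre subtypes. It had 9.08, 7.09 and 9.44 RPKM in proprioceptors, 10.6, 7.04 and 9.81 in Aβ SA1-LTMRs, 12.9, 10.6 and 8.81 in Aβ Field-LTMRs, and 16.2, 13.5, 20.97, 11.9 and 7.52 in Aβ RA-LTMRs. It had 59.0, 60.8 and 66.0 RPKM in Aδ-LTMRs, against 113, 116 and 117 in C-LTMRs, 43.0, 40.7 and 49.2 in peptidergic nociceptors, and 81.2, 80.3 and 76.3 in nonpeptidergic nociceptors. Every Aδ-LTMR library was above every Aβ-LTMR and proprioceptor library and above every peptidergic nociceptor library. The A-fibre contrast was -2.16 (SE 0.10, edgeR adjusted p = 8.47e-16). By counts, Syt1 in the 3 Aβ-LTMR classes and proprioceptors was lower than in Aδ-LTMRs by log2 differences of -2.57 to -3.31, all 4 called, and no pair among those 4 subtypes was called. Aδ-LTMRs did not pass against nonpeptidergic nociceptors, at -0.14 (SE 0.20, edgeR adjusted p = 0.580), or against C-LTMRs, at -0.37. They were higher than peptidergic nociceptors by 0.98 (SE 0.20, edgeR adjusted p = 0.000529), just under the fold threshold.

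Syt9 (chromosome 7, 107370728 to 107548656, plus strand) averaged 1.55 ± 0.13 RPKM in proprioceptors, 3.55 ± 1.75 in Aβ SA1-LTMRs, 6.06 ± 2.27 in Aβ Field-LTMRs and 2.51 ± 1.02 in Aβ RA-LTMRs (SD, n = 5 for Aβ RA-LTMRs and 3 otherwise). It averaged 8.08 ± 1.145 RPKM in Aδ-LTMRs, against 45.9 ± 0.84 in C-LTMRs, 43.9 ± 3.34 in peptidergic nociceptors and 73.3 ± 1.42 in nonpeptidergic nociceptors. The 17 A-fibre libraries, at 1.19 to 9.27 RPKM, did not overlap the 9 others, at 41.1 to 74.8 RPKM. The contrast was -3.79 (SE 0.16, edgeR adjusted p = 2.81e-16), and all 15 pairs of an A-fibre subtype with a nociceptor or C-LTMR subtype were called lower. Among all genes, 27.7% of such pairs were called in either direction. Within nociceptors and C-LTMRs no pair was called for Syt9.

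RPKM is per length, so Syt1, Syt2 and Syt9 can be set side by side within a library. Syt2 made up 84.5% ± 2.09 of their summed RPKM in proprioceptors, 81.9% ± 1.15 in Aβ SA1-LTMRs, 75.6% ± 5.53 in Aβ Field-LTMRs, 75.2% ± 3.03 in Aβ RA-LTMRs and 22.97% ± 4.71 in Aδ-LTMRs. Its share was 2.72% ± 0.54 in C-LTMRs, 18.1% ± 2.14 in peptidergic nociceptors and 0.378% ± 0.299 in nonpeptidergic nociceptors (SD, n as above). Aδ-LTMRs thus lay nearer to peptidergic nociceptors than to the other A-fibre subtypes, and their lowest library (20.2%) was below the highest peptidergic one (20.6%). The mean over libraries was 68.9% on the A-fibre side (n = 17) and 7.07% on the other (n = 9), a difference of 61.8 percentage points (two-sided exact permutation test over libraries, p = 9.6e-07). Syt1, Syt2 and Syt9 were each already called in these same libraries, so p-values of the share are no separate support for those calls. Libraries of 1 subtype are not independent samples of a fibre class: over the 8 subtype means the difference was 61.0 points with an exact p of 0.0179, the smallest that 56 arrangements allow. Permuted over libraries again, the difference was 65.5 points within libraries of 15 to 50 base reads (exact permutation p = 8.23e-05, n = 9 and 9). None of these libraries was of Aβ SA1-LTMRs. With Syt9 left out of the sum, the difference over all libraries was 60.9 points (exact permutation p = 5.76e-06, also over libraries). Syt9 had its largest share, 47.9%, in nonpeptidergic nociceptors, where Syt1 had 51.8%, and Syt1 had 69.6% in C-LTMRs and 68.2% in Aδ-LTMRs.

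**Figure D2:**
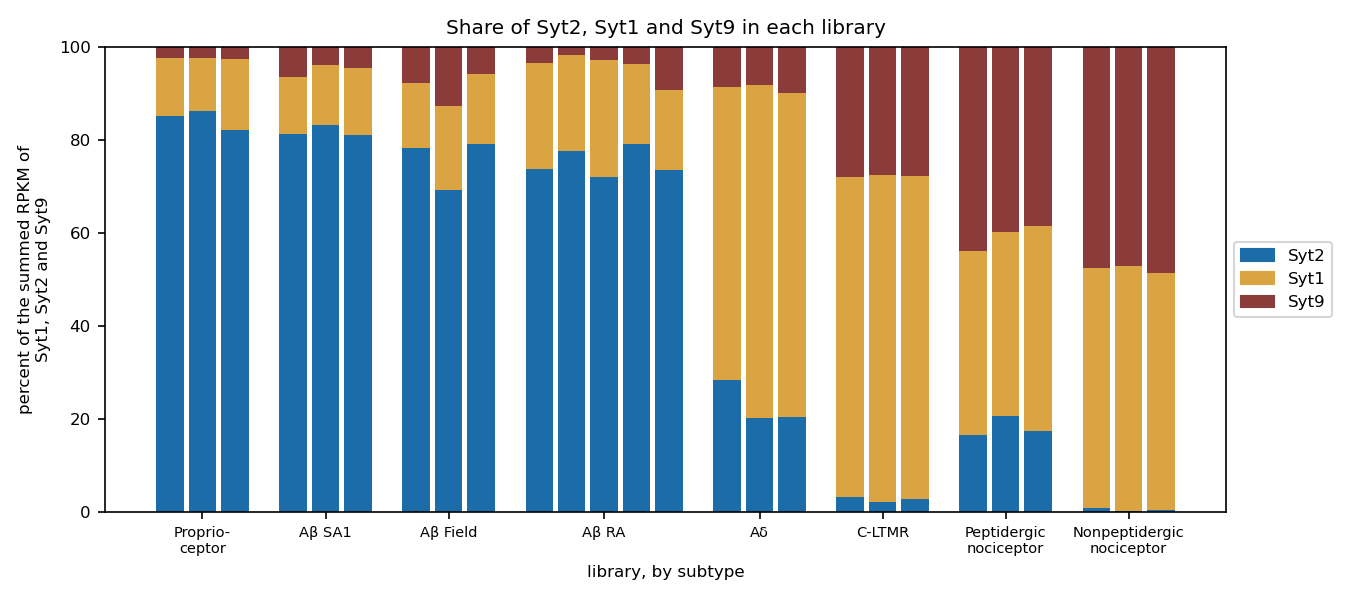
Share of Syt2 (bottom), Syt1 (middle) and Syt9 (top) in the summed RPKM of the 3 genes, in percent (y axis), with 1 bar per library grouped by subtype (x axis). Syt2 takes 69.2% to 86.2% in every Aβ-LTMR and proprioceptor library, 20.2% to 28.4% in Aδ-LTMR libraries and at most 20.6% in nociceptor and C-LTMR libraries.

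The ratio of Syt2 to Syt1 RPKM set the same 4 subtypes above the rest. It averaged 6.56 in proprioceptors, 6.22 in Aβ SA1-LTMRs, 4.93 in Aβ Field-LTMRs, 3.75 in Aβ RA-LTMRs and 0.341 in Aδ-LTMRs, against 0.039 in C-LTMRs, 0.443 in peptidergic nociceptors and 0.0073 in nonpeptidergic nociceptors. Syt2 exceeded Syt1 in each of the 14 Aβ-LTMR and proprioceptor libraries and in none of the other 12.

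The members with high calcium affinity moved in opposite directions. Syt3 (chromosome 7, 44384102 to 44400187, plus strand) had 32.3, 43.2 and 37.0 RPKM in proprioceptors, 55.9, 35.3 and 54.0 in Aβ SA1-LTMRs, 45.3, 49.0 and 54.0 in Aβ Field-LTMRs, and 44.1, 34.1, 45.2, 37.4 and 52.9 in Aβ RA-LTMRs. It had 32.4, 31.1 and 28.8 RPKM in Aδ-LTMRs, against 9.35, 9.69 and 9.99 in C-LTMRs, 3.29, 5.54 and 3.88 in peptidergic nociceptors, and 0.632, 0.205 and 0.129 in nonpeptidergic nociceptors. The 2 sides did not overlap. The contrast was 4.24 (SE 0.21, edgeR adjusted p = 5.49e-15), and all 15 pairs across the sides were called higher. The 3 lower subtypes also differed from each other: C-LTMRs exceeded peptidergic nociceptors by a log2 difference of 1.10 and nonpeptidergic nociceptors by 4.80, and peptidergic exceeded nonpeptidergic nociceptors by 3.69, all called. The first of these calls was lost under 6 of 40 alternatives, 4 of which left out a C-LTMR or peptidergic nociceptor library. Like Syt2, Syt3 was called lower in nonpeptidergic nociceptors than in each of the other 7 subtypes, the smallest log2 difference being -3.69 with all libraries and -4.69 without nonpeptidergic nociceptor library 1. The calls of Aβ-LTMR classes over Aδ-LTMRs (log2 differences of 1.18 to 1.27) were lost on the RPKM scale and without Aδ-LTMR libraries 1 and 2, and over all alternatives the differences ranged from 0.45 to 1.60.

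Syt7 (chromosome 19, 10389090 to 10453180, plus strand), which serves asynchronous release and vesicle replenishment, was lowest in Aβ RA-LTMRs. It averaged 7.60 ± 0.80 RPKM in proprioceptors, 4.97 ± 1.75 in Aβ SA1-LTMRs, 11.2 ± 4.69 in Aβ Field-LTMRs, 1.39 ± 0.72 in Aβ RA-LTMRs and 12.05 ± 6.17 in Aδ-LTMRs. It averaged 59.4 ± 2.43 RPKM in C-LTMRs, 28.6 ± 4.07 in peptidergic nociceptors and 91.4 ± 3.03 in nonpeptidergic nociceptors. A-fibre libraries, at 0.686 to 18.5 RPKM, did not overlap the others, at 25.4 to 94.6 RPKM, and the contrast was -3.02 (SE 0.17). The 5 Aβ RA-LTMR libraries had 1.11, 0.686, 1.23, 2.59 and 1.32 RPKM, all below the lowest library of any other subtype, 3.32 in Aβ SA1-LTMRs. Syt7 was called lower in Aβ RA-LTMRs than in each of the other 7 subtypes, by a log2 difference of at least 1.69 in size, and the call held under all alternatives; 0.184% of all genes were lower in that subtype in the same way. The Aδ-LTMR libraries were spread from 6.21 to 18.5 RPKM. The call of C-LTMRs over peptidergic nociceptors (log2 difference 1.00, edgeR adjusted p = 0.0495) was lost under 29 of 40 alternatives.

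On the log2 scale, Syt3 RPKM exceeded Syt7 RPKM in every A-fibre subtype, by 2.30 in proprioceptors, 3.31 in Aβ SA1-LTMRs, 2.24 in Aβ Field-LTMRs, 5.06 in Aβ RA-LTMRs and 1.49 in Aδ-LTMRs. It was below Syt7 RPKM in the others, by differences of -2.62 in C-LTMRs, -2.78 in peptidergic nociceptors and -8.48 in nonpeptidergic nociceptors. The lowest A-fibre library was at 0.81 and the highest of the others at -2.30.

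**Figure D3:**
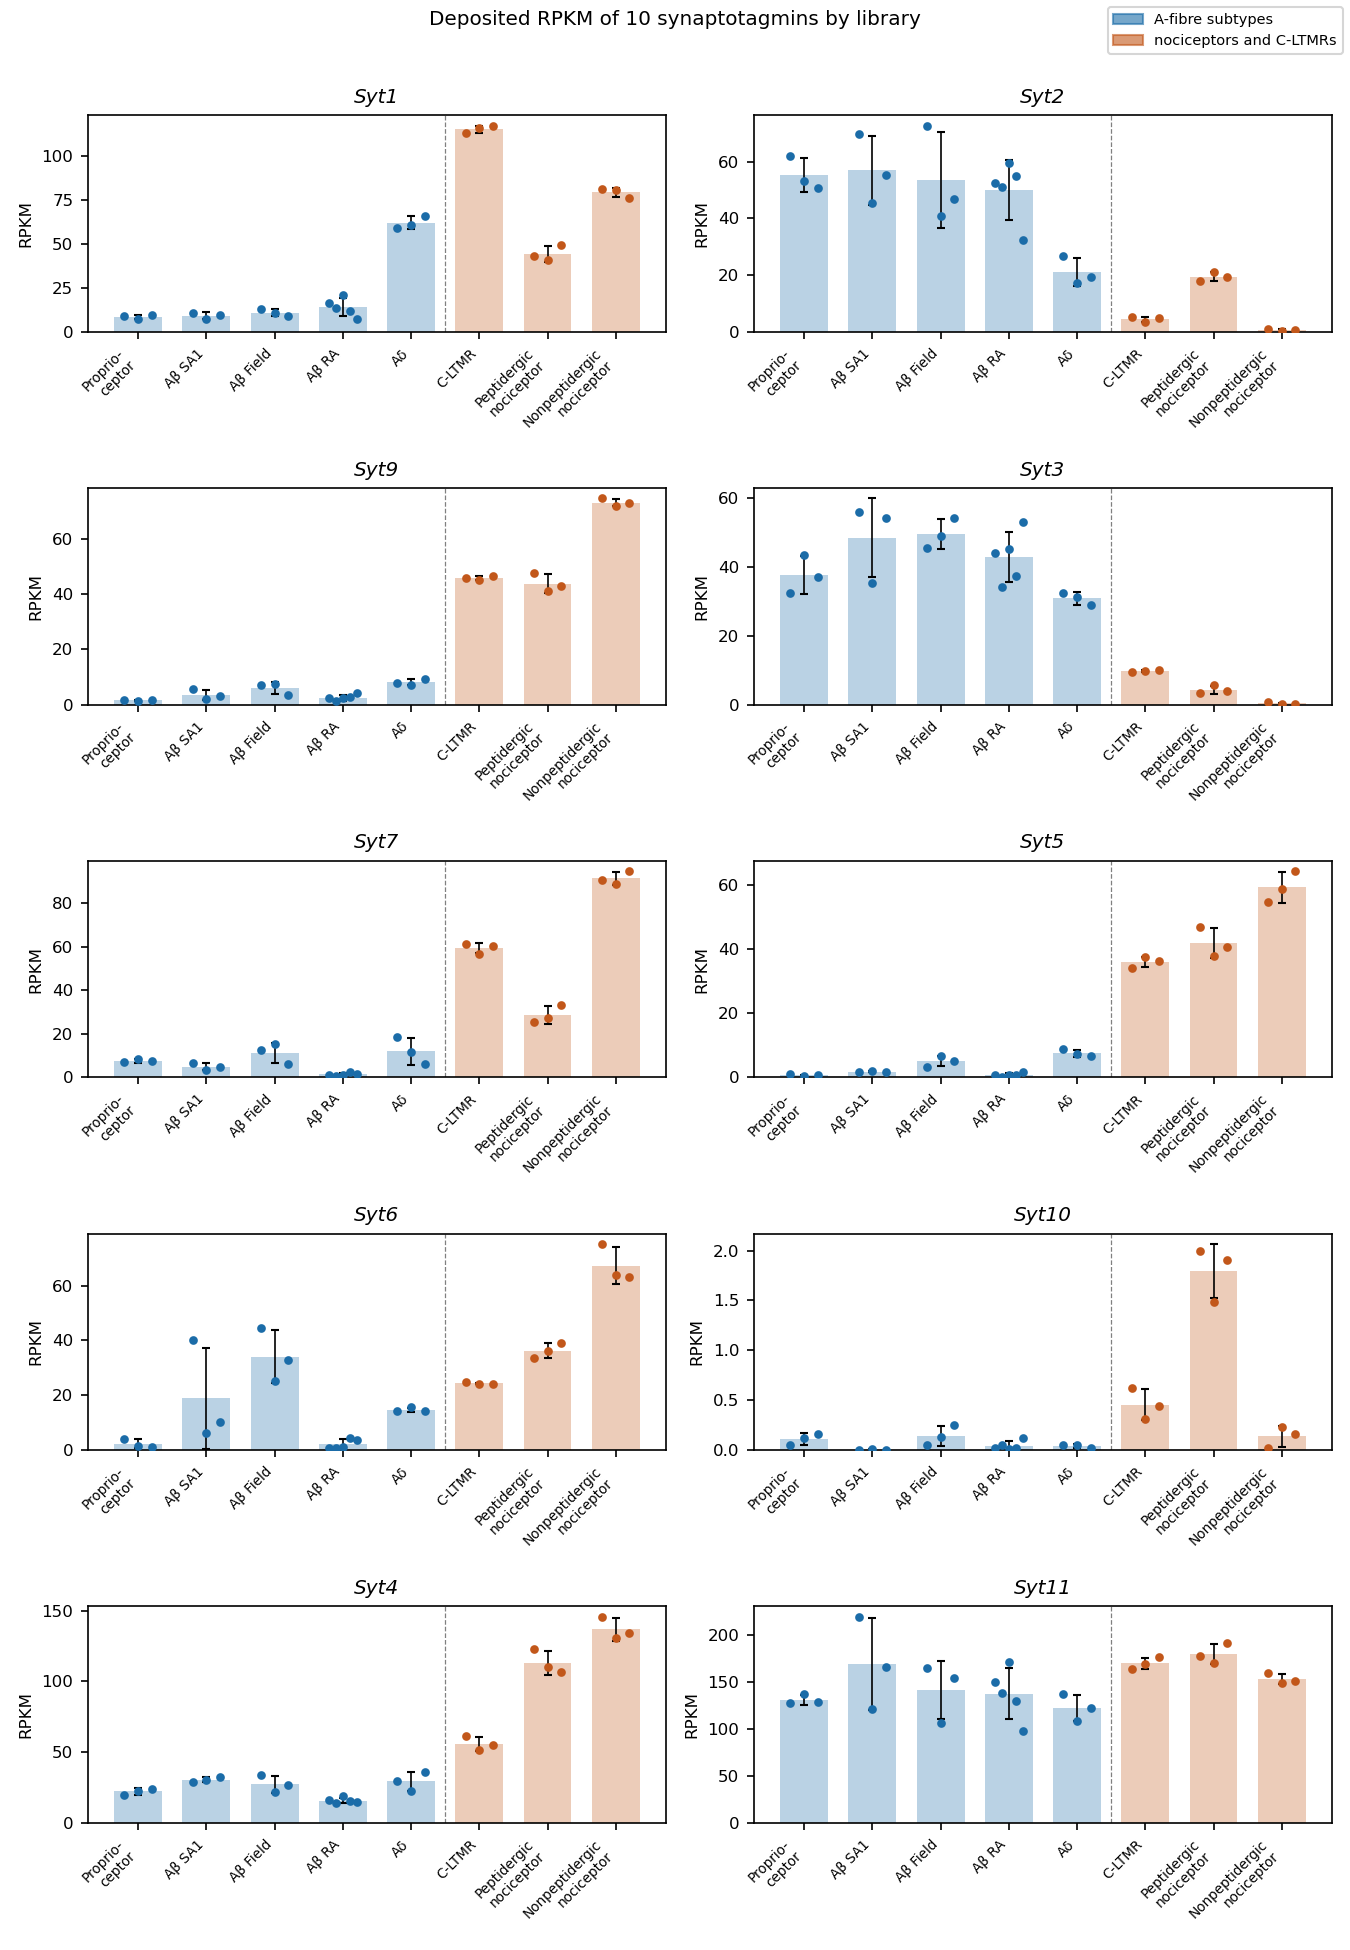
Deposited RPKM (y axis, linear from 0 and scaled for each gene) of the 10 synaptotagmins in the 8 subtypes (x axis); points are libraries, bars means and whiskers ± SD, with A-fibre subtypes in blue and nociceptors and C-LTMRs in orange. The 2 colours do not overlap in RPKM for Syt3, Syt4, Syt5, Syt7 and Syt9. The share of all genes separated in this way was not counted. Syt11 spans 97.7 to 220.0 RPKM in blue and 149 to 192 in orange.

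Averaged over subtypes, Syt5, Syt6 and Syt10 were all called lower on the A-fibre side. Of 15 pairs across the sides, 15, 8 and 9 were called lower. Among all genes, 27.7% of such pairs were called in either direction. Syt6 and Syt10 belong with Syt3 to a group of related members that dimerise through cysteines near the amino terminus, and Syt10 controls growth factor secretion in olfactory bulb neurons of the mouse. Syt5 (chromosome 7, 4539765 to 4547541, minus strand) averaged 0.688 ± 0.20 RPKM in proprioceptors, 1.78 ± 0.21 in Aβ SA1-LTMRs, 4.99 ± 1.58 in Aβ Field-LTMRs, 0.876 ± 0.57 in Aβ RA-LTMRs and 7.52 ± 1.136 in Aδ-LTMRs. It averaged 35.9 ± 1.63 RPKM in C-LTMRs, 41.8 ± 4.59 in peptidergic nociceptors and 59.2 ± 4.81 in nonpeptidergic nociceptors. Its contrast of -4.26 (SE 0.21) was the lowest of the 10, and the sides did not overlap. None of the 3 pairs among nociceptors and C-LTMRs was called. Within the A-fibre side, Aδ-LTMRs and Aβ Field-LTMRs had the highest levels. Proprioceptors, Aβ SA1- and Aβ RA-LTMRs were each called lower than Aδ-LTMRs, by log2 differences of -3.05, -1.67 and -2.55, while Aβ Field-LTMRs, at -0.29, did not pass.

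Syt6 (chromosome 3, 103575231 to 103645569, plus strand) varied between libraries of 1 subtype in Aβ SA1- and Aβ RA-LTMRs. It had 4.21, 1.63 and 1.05 RPKM in proprioceptors, 40.0, 6.39 and 10.1 in Aβ SA1-LTMRs, 44.5, 25.2 and 32.7 in Aβ Field-LTMRs, and 0.733, 0.672, 1.04, 4.56 and 3.66 in Aβ RA-LTMRs. It had 14.3, 15.5 and 14.3 RPKM in Aδ-LTMRs, against 24.7, 24.2 and 24.1 in C-LTMRs, 33.7, 36.1 and 39.0 in peptidergic nociceptors, and 75.2, 63.7 and 63.0 in nonpeptidergic nociceptors. Aβ SA1-LTMR library 1 stood apart from its 2 fellows, and Aβ RA-LTMR libraries 4 and 5, with reads of 15 to 50 bases, were above libraries 1 to 3, with reads of 25 to 50 bases. The A-fibre contrast was -2.34 (SE 0.20) and remained called under all alternatives, with a highest adjusted p of 0.0165. Proprioceptors and Aβ RA-LTMRs were each called lower than 6 other subtypes and the pair itself was not called, at 0.21 (SE 0.37). Aβ Field-LTMRs were not called lower than any nociceptor or C-LTMR subtype.

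Syt10 (chromosome 15, 89782393 to 89841860, minus strand) was near the limit of detection outside peptidergic nociceptors. Its counts were 3, 15 and 23 in proprioceptors, 0, 2 and 0 in Aβ SA1-LTMRs, 10, 4 and 34 in Aβ Field-LTMRs, 3, 6, 1, 1 and 12 in Aβ RA-LTMRs, and 4, 4 and 3 in Aδ-LTMRs. They were 54, 35 and 67 in C-LTMRs, 267, 178 and 228 in peptidergic nociceptors, and 3, 24 and 23 in nonpeptidergic nociceptors. Peptidergic nociceptors, at 1.80 ± 0.27 RPKM, were above all other libraries, the next being C-LTMRs at 0.456 ± 0.16; they were called higher than 6 subtypes, and against C-LTMRs the log2 difference was 1.96 (SE 0.77, edgeR adjusted p = 0.0928). Nonpeptidergic nociceptors, at 0.137 RPKM, were not called apart from Aβ Field-LTMRs (0.146 RPKM) or proprioceptors (0.113 RPKM). The fitted contrast of -3.17 (SE 0.42) includes Aβ SA1-LTMRs with 2 counts in all, and so is no bound on the change. It was -0.64 on the log2(RPKM + 1) scale, under the fold threshold.

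Syt4 and Syt11, the members with reduced or absent calcium binding, differed from each other in pattern. Syt4, an activity-regulated vesicle protein, had 19.7, 22.8 and 24.2 RPKM in proprioceptors, 28.9, 30.1 and 32.4 in Aβ SA1-LTMRs, 33.5, 21.6 and 26.6 in Aβ Field-LTMRs, and 16.0, 13.7, 18.8, 15.1 and 14.7 in Aβ RA-LTMRs. It had 29.9, 22.5 and 35.9 RPKM in Aδ-LTMRs, against 61.3, 51.1 and 55.2 in C-LTMRs, 123, 110 and 107 in peptidergic nociceptors, and 146, 130 and 134 in nonpeptidergic nociceptors. The sides did not overlap in RPKM, but they did in CPM. Aδ-LTMR libraries ran from 274 to 384 CPM and C-LTMR libraries from 310 to 347 CPM. The contrast was -1.71 (SE 0.09). The 2 deposited scales differed for this gene. By counts, Aδ-LTMRs (325 CPM) and C-LTMRs (327 CPM) differed by a log2 fold change of -0.01 (SE 0.19, edgeR adjusted p = 0.990), while the RPKM means were 29.4 and 55.9.

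Syt11 (chromosome 3, 88744700 to 88775164, minus strand), an inhibitor of endocytosis, was the most abundant member per length in every subtype. It averaged 131 ± 5.09 RPKM in proprioceptors, 169 ± 49.4 in Aβ SA1-LTMRs, 142 ± 30.9 in Aβ Field-LTMRs, 138 ± 27.2 in Aβ RA-LTMRs and 123 ± 14.3 in Aδ-LTMRs. It averaged 170.1 ± 6.19 RPKM in C-LTMRs, 180.4 ± 10.7 in peptidergic nociceptors and 153 ± 5.69 in nonpeptidergic nociceptors. The sides overlapped, the highest subtype mean was 1.47 times the lowest, and none of 28 pairs was called. The contrast was -0.04 (SE 0.07, edgeR adjusted p = 0.669); on the log2(RPKM + 0.1) scale it was -0.28 (limma adjusted p = 0.0378), again under the threshold. The F test over subtypes gave an adjusted p of 0.464.

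The share of all genes called in single pairs ran from 8.87% to 35.5%. Over all 28 pairs of subtypes, 172 of 280 combinations of member and pair were called, 61.4%, against 21.8% for all genes. Across the sides it was 115 of 150, against 27.7% for all genes; between Aδ-LTMRs and the other A-fibre subtypes 23 of 40, against 13.6%; among the 3 Aβ-LTMR classes and proprioceptors 20 of 60, against 13%; and among nociceptors and C-LTMRs 14 of 30, against 20.7%. The pairs share libraries, so these shares are not independent counts. Syt7 was called in 23 pairs, Syt5 and Syt9 in 22 each, Syt2 and Syt3 in 21 each, and Syt1 and Syt6 in 18 each. Syt4 was called in 15, Syt10 in 12 and Syt11 in none. No member was called higher in 1 subtype than in each of the other 7, as 5.53% of all genes were in some subtype; Syt2, Syt3 and Syt7 were called lower in 1 subtype than in each of the other 7, as 9.18% of all genes were.

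The closest pair by origin, Aβ Field- and Aβ SA1-LTMRs, shares its alleles and differs in tamoxifen day and dose. Aβ Field-LTMRs were called higher in Syt5 (log2 difference 1.37, SE 0.41, edgeR adjusted p = 0.0288), Syt6 (1.28, 0.41, 0.0410), Syt7 (1.30, 0.35, 0.0155) and Syt9 (1.143, 0.32, 0.0184), where 8.87% of all genes were called. Syt10 was also called, on 2 counts in Aβ SA1-LTMRs, and Syt1, Syt2, Syt3, Syt4 and Syt11 were not. Each of the 4 calls was lost under 7 to 17 of 39 alternatives, among them those that left out 1 library of either subtype and the model with read length. With read length in the model the Syt6 difference was near 0, at -0.04. All Aβ SA1-LTMR libraries had reads of 25 to 50 bases and all Aβ Field-LTMR libraries 15 to 50. Only Aβ RA-LTMRs had libraries of both kinds, so that model carries the gap between Aβ RA-LTMR libraries over to Aβ SA1-LTMRs. It cannot tell read length from subtype in this pair. Mrgprd, the nonpeptidergic nociceptor marker, averaged 55.9 ± 33.7 CPM in Aβ Field-LTMRs and 16.6 ± 6.79 CPM in Aβ SA1-LTMRs, and Calca averaged 239 ± 65.5 CPM in Aβ Field-LTMRs and 69.2 ± 43.0 CPM in Aβ SA1-LTMRs; their part in these calls was not tested.

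Summed over the 10 members, RPKM was lower on the A-fibre side. The sum averaged 267 ± 7.60 RPKM in proprioceptors, 343 ± 93.4 in Aβ SA1-LTMRs, 339 ± 56.7 in Aβ Field-LTMRs, 267 ± 38.9 in Aβ RA-LTMRs and 308 ± 26.5 in Aδ-LTMRs. It averaged 521 ± 9.43 RPKM in C-LTMRs, 514 ± 19.4 in peptidergic nociceptors and 662 ± 20.5 in nonpeptidergic nociceptors. The highest A-fibre library, 439 RPKM in Aβ SA1-LTMRs, was below the lowest of the others, 492 RPKM. Syt11 made up 46.8% ± 5.34 of the sum in A-fibre libraries (n = 17) and 30.3% ± 5.49 in the others (n = 9), Syt2 and Syt3 16.0% and 14.2% against 1.58% and 0.912%, and Syt4 7.94% against 17.8%. These sums follow from the members described above and were not tested.

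**Figure D4:**
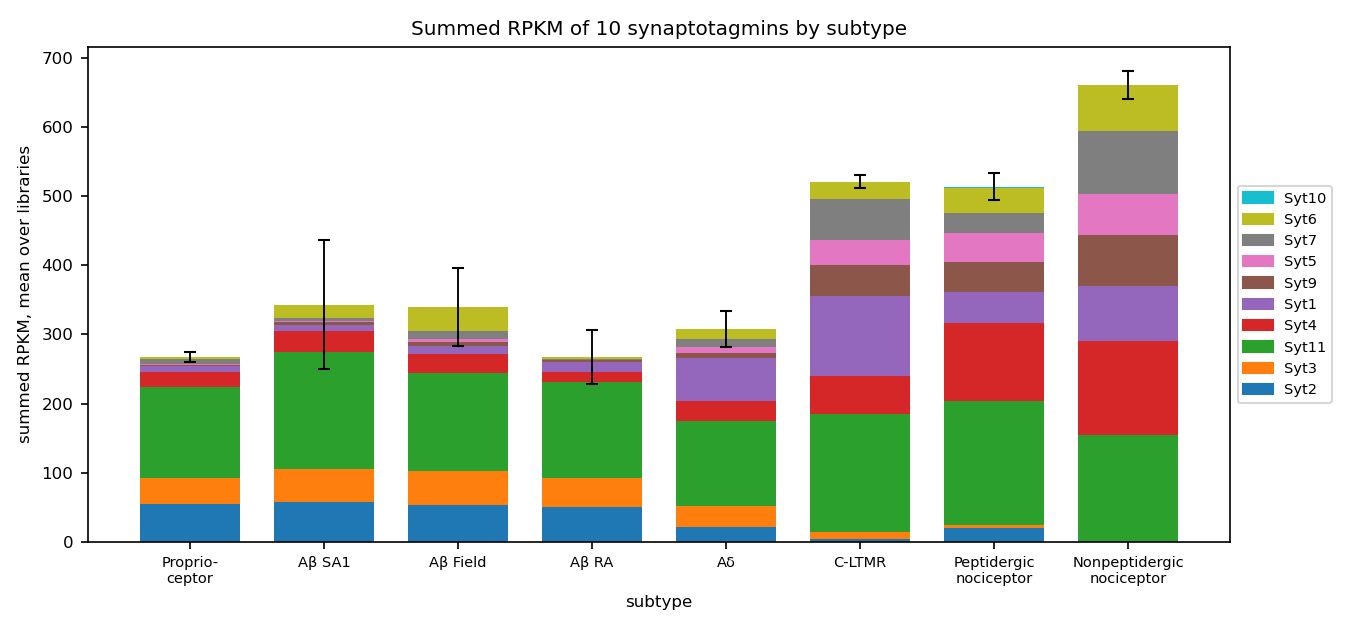
Mean RPKM of the 10 synaptotagmins stacked by gene (y axis) in the 8 subtypes (x axis); whiskers are ± SD of the sum over libraries. Syt2 and Syt3 fill the base of the A-fibre bars and nearly vanish in nonpeptidergic nociceptors, where the sum is highest at 662 RPKM, and Syt11 is the thickest band in every bar.

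Across the 26 libraries, log2 CPM of the members fell into 2 sets with Syt11 outside both. These correlations are descriptions over libraries that share subtypes. Syt2 and Syt3 had a Pearson r of 0.92, and each was negatively related to Syt1, Syt4, Syt5, Syt6, Syt7, Syt9 and Syt10, with r between -0.31 and -0.88. Syt5 and Syt9 had the highest r among members, 0.98. Syt10 was the loosest member of its set, with r from 0.37 (Syt6) to 0.62 (Syt5). The r of Syt11 with any other member was between -0.08 and 0.42, so the ranges of Syt10 and Syt11 overlapped.

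Among 9469 other genes averaging at least 5 CPM, the 3 with the highest r over the 26 libraries were named for each member. For Syt2 they were Lynx1 (r = 0.98), a modulator of nicotinic receptors, Dgkb (0.98), a diacylglycerol kinase, and Sv2b (0.98), a synaptic vesicle glycoprotein. For Syt3 they were Kcnh2 (0.99), an ERG potassium channel, Fbxo2 (0.98) and Fam57b (0.98). Syt5 was nearest to Syt9, Ldb2 (0.98) and Scn10a (0.97), the sodium channel Nav1.8 of nociceptors, and Syt9 to Gpr35 (0.98), Syt5 and Ldb2 (0.98). Syt1 was nearest to Cpne3 (0.96), a copine with C2 domains, Nptx2 (0.94) and Pld5 (0.94). Syt7 was nearest to Coro2a (0.97), and Syt4 to Gnb4 (0.97), Nt5e (0.97) and Cd9 (0.96). Syt6 had lower values, with Eml1 at 0.93, and Syt10 the lowest, with Lig1 at 0.88.

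Other genes of the release machinery were called in both directions. Of 89 listed genes in 5 lists, 83 were tested; 15 were called higher and 22 lower in A-fibre subtypes, and 46 were not called, with a median log2 fold change of -0.30. The shares of all genes called higher and lower are those given above, 15.6% and 12.9%, so the share called higher was near that of all genes. Among 13 tested other synaptotagmins and their relatives, 4 were higher and 4 lower, among 21 SNARE and SNARE-binding genes 4 and 4, among 6 complexin, Doc2 and related genes 1 and 1, among 18 active zone and priming genes 2 and 4, and among 25 vesicle genes 4 and 9.

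The largest positive contrasts of A-fibre subtypes were in Slc17a7 (log2 fold change 5.62), the vesicular glutamate transporter VGLUT1, Syt12 (4.30), Sv2b (3.73), Stxbp5l (3.01), a tomosyn, Rims4 (2.73), Syt13 (2.73), Vamp1 (2.71), a vesicle SNARE, and Sytl4 (2.64). As a mean of subtype means, Sytl4 had only 0.447 CPM on the A-fibre side and 0.0968 CPM on the other. Its call was lost with read length in the model (edgeR adjusted p = 0.229) and with the satellite glia score (edgeR adjusted p = 0.428). It was also lost on the RPKM scales. Rims4 and Syt13 were under the fold threshold on the log2(RPKM + 1) scale. The largest negative contrasts were in Synpr (-3.85), the vesicle protein synaptoporin, Stxbp2 (-3.53), Esyt3 (-3.35), Stx2 (-2.91), a syntaxin, Syt16 (-2.82), Slc17a8 (-2.74), the transporter VGLUT3, Unc13b (-2.59), a priming factor, and Rab27b (-2.57). For 2 of these the contrast came from part of the nociceptor and C-LTMR side. Slc17a8 averaged at most 4.02 CPM in any A-fibre subtype, against 167 CPM in C-LTMRs but 2.20 CPM in peptidergic and 2.64 CPM in nonpeptidergic nociceptors, and its call was lost with the satellite glia score in the model (edgeR adjusted p = 0.0710). Syt16 averaged at most 1.92 CPM in any A-fibre subtype, against 15.1 CPM in C-LTMRs, 37.6 CPM in peptidergic and 1.44 CPM in nonpeptidergic nociceptors. The vesicle SNAREs Vamp1 and Vamp2 stood on opposite sides. As means of subtype means, Vamp1 had 608 CPM on the A-fibre side and 93.1 CPM on the other. Vamp2 had 361 CPM on the A-fibre side and 655 CPM on the other (log2 fold change -1.09). The plasma membrane SNARE Snap25 was higher in A-fibre subtypes (1.66).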

How the data were processed

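The synaptotagmins and the gene lists were chosen with earlier results of these data known. The authors deposited gene counts, RPKM values and an alignment summary for 26 libraries, made per the labels from RNA amplified with a NuGEN kit and sequenced from TruSeq libraries. FastQC 0.11.3, HTSeq 0.6.1, STAR, Cuffdiff, DESeq2 1.14.1 and the mm10 build were named, without roles, per the submitters' processing notes, and whether counting used strand is not given in the sources used here. The deposited RPKM values were used as levels, as mean ± SD over libraries; how the authors computed them is not stated. The deposited summary gives the fraction of reads mapped and exonic, printed here as percentages, and a 5' to 3' ratio per the file headers, which was not used in a result. A deposited regularised-log table was not used.

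The deposited counts were fitted with edgeR 4.0.16 (R 4.3.3): TMM scaling, the default expression filter (17411 of 39017 genes kept), 1 coefficient per subtype over all 26 libraries, robust dispersion and quasi-likelihood tests, with Benjamini-Hochberg adjustment over all genes of a comparison. The fitted common dispersion came to 0.107. The A-fibre contrast is the mean of the 5 A-fibre coefficients minus the mean of the other 3. SE is the absolute log2 fold change divided by the square root of F. Correlations used log2 CPM with a prior count of 2. Shares were compared by two-sided exact permutation of libraries. The fit was tested on simulated counts. Other tools were limma 3.58.1, DESeq2 1.42.0, Python 3.11.15, pandas 2.3.3 and matplotlib 3.10.9. Likeness genes are the 3 with the highest r for each member that passed the F test, and not all are printed. Named release genes are the 8 called with the largest change in each direction, and Vamp2 and Snap25 were added after their values were seen. Library pairs with identical values numbered 0. Same-numbered libraries of different subtypes did not deviate together (r of -0.15 to 0.24 over 84 pairs, median 0.00), and replicate numbers were not taken as pairs. RefSeq promoter windows are on GRCm38.p6, and gene positions are from GENCODE M21 on GRCm38.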

Additional observations from a re-analysis of the deposited data

How the results depend on the processing

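Up to 40 alternatives were tried: other scaling factors, DESeq2, other low-count filters, limma on RPKM, read length or the satellite glia score in the model, a replicate block, and leaving out each library; the subset of libraries with reads of 15 to 50 bases was chosen after seeing the data. Under these the F test passed 8 to 9 members, the A-fibre contrast called 2 higher and 6 to 7 lower, 54.6% to 63.6% of member and pair combinations were called (59.6% to 63.6% with 1 library left out), and the Syt2 share differed by 14.4 to 67.8 points (60.7 to 64.9 with 1 library left out), the lowest being the share in all 10 members. Of 399 values of the members' A-fibre contrasts, 398 kept their call, and no called contrast reversed. The exception was Syt10 at -0.64 on the log2(RPKM + 1) scale. Syt11 was not called under any alternative and changed sign, with values from -0.28 to 0.22. Among the named release genes, 629 of 636 values kept their direction and call, with exceptions in Rims4, Syt13, Sytl4 and Slc17a8. With the replicate block, 177 of 280 pairs were called, against 172 without it, and 9 members of the F test, 2 higher and 7 lower were as before; 8 of 24 libraries matched best with the same number. Of all genes called in the A-fibre contrast, 54.8% were higher, against 40.1% to 41.6% on the RPKM scales. The low counts of Syt10 and the 3 libraries in most subtypes limit precision.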

Other observations

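The deposited RPKM and CPM computed from the deposited counts did not order the subtypes alike for every member. Relative to the member's own median ratio, log2 RPKM deviated from log2 CPM by -1.21 to 0.28 for Syt4 over libraries, by -0.74 to 0.98 for Syt3 and by -0.63 to 1.24 for Syt6. For Syt3, Aδ-LTMRs were at 43.3 CPM and Aβ RA-LTMRs at 104 CPM, while the RPKM means were 30.8 and 42.7. The source of this difference of scale was not tested.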
